A study of Homo sapiens with 18 samples.

Results

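The major histocompatibility complex (MHC) class II genes, their invariant chain CD74 and their transactivator CIITA were followed across 3 liver cancer cell lines. The genes were chosen by name, as every listed symbol that begins with HLA-D together with CD74 and CIITA. The choice was made with the fold changes of these data already known, so the members' own changes are described here without a test. The rule found 10 genes of the 15019 listed in either of the authors' deposited tables: 7 of 14888 genes in the comparison of H33 with HepG2, and 10 of 14896 in that of H12 with HepG2. HLA-DPB1, HLA-DQA1 and HLA-DQB1 were listed for H12 alone, and the other 7 were listed for both clones.

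HepG2 is a human hepatoblastoma line, labelled wild type, and served as the control. H33 and H12 carry the DNAJB1-PRKACA fusion of a heat shock co-chaperone with the catalytic subunit of the cAMP-dependent kinase PKA, in a HepG2 background per the labels. Each is 1 clone, so clone and genotype cannot be told apart. All 3 lines were kept in RPMI1640 with 10% fetal bovine serum and no further treatment is labelled, and 6 poly-A libraries were made from each. The labels name the 6 libraries of a line biological replicates but not whether each had its own culture, so p-values cover the spread between these libraries, which may be technical.

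MHC class II molecules are pairs of an alpha and a beta chain that show peptides from the endosome to CD4+ T cells. The chains pair in the endoplasmic reticulum around the invariant chain CD74, which blocks the groove until proteases trim it in the endosome and HLA-DM exchanges its last fragment for a peptide. CIITA is a coactivator without DNA binding of its own that is recruited to the X and Y boxes of these promoters by the RFX complex, CREB and NF-Y. The set is constitutive in professional antigen-presenting cells, while most epithelial cells, hepatocytes among them, switch it on after interferon gamma.

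PRKACA had a log2 fold change of 2.15 in H33 and 2.07 in H12 in the authors' deposited tables, and reads of the fusion and of the intact gene are not separated in these values. The hepatocyte markers ALB, AFP, APOA1, TTR and HNF4A, all present in HepG2, had log2 fold changes from -16.75 to -7.90 in H33 and from -6.16 to -5.92 in H12 in the authors' deposited tables. The standard error (SE) implied by the likelihood ratio ran from 0.061 for HNF4A to 0.12 for AFP in H33. It was far larger in H12, from 0.73 for TTR to 1.59 for ALB. ALB, at 21086 CPM (counts scaled to library size) in HepG2, stood at 22.0 CPM in H33 and 349 CPM in H12. HepG2 thus held the markers of a liver cell line, and the clones held them at a small share of that level. For 160 genes with at least 10 CPM in HepG2 and a log2 fold change under -9 in H33, the values in H12 gathered at a median of -5.93 with an SD of 0.203, which is 1.64% of the HepG2 level. Values in H12 near that share are given with it. That SD is over genes and does not measure the spread over libraries. Values per library were not analysed here, so depth and the share of the libraries behind a value are unknown. The spread within a group shows only through the SEs.

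CIITA and every listed HLA-D gene stood higher in each clone for which it was listed, while CD74 stood lower. In H33, 6 of 7 members were higher and CD74 lower at an adjusted p under 0.05 in the authors' deposited table, where 89.6% of all genes passed that threshold, 44.2% as higher and 45.3% as lower. In H12, 9 of 10 were higher and CD74 again lower in the authors' deposited table, where 86% of all genes passed, 41.8% as higher and 44.3% as lower. These counts restate the choice of the members, and nothing is read from them. The class II genes in HepG2 were at or near 0, and a gene of this kind can pass a filter on its mean level only through the clone. The lowest mean level listed was -1.63 log2 CPM for H33 and -1.67 for H12, and the lowest members were HLA-DQA1 at -1.16 and HLA-DQB1 at -1.12 in the authors' deposited table for H12. GENCODE 29 holds 22 genes that the rule matches, 15 of them protein-coding. The coding genes HLA-DRB5, HLA-DQA2, HLA-DQB2, HLA-DOA and HLA-DOB and 7 pseudogenes or antisense genes were in neither table, and no value is given for them.

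CD74 and HLA-DRB1, which moved in opposite directions, share in their promoters the letters of the class II control module, so 4 member promoters are printed. RefSeq (GRCh38.p14) gave entries for 8 of the 10 members, each with 250 bases before and 50 after an annotated start, and HLA-DPA1 had 2 entries. The Y box was searched as ATTGG, and the core of the X1 box as AG, any base, AAC, any 3 bases, TG, both on either strand. The stretches run 5′ to 3′ on the gene's strand and end before the start; capitals mark the X1 core and then the Y box, which reads CCAAT where it lies on the other strand. In HLA-DMA the capitals mark a pair of Y boxes. They lie at chr5:150412949-150413001 for CD74, chr6:32589880-32589937 for HLA-DRB1, chr6:32941036-32941126 for HLA-DMB and chr6:32953132-32953186 for HLA-DMA, all on the minus strand.
CD74: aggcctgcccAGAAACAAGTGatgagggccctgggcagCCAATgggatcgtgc
HLA-DRB1: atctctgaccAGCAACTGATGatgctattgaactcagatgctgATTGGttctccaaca
HLA-DMB: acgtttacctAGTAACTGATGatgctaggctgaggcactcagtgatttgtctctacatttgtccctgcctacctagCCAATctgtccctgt
HLA-DMA: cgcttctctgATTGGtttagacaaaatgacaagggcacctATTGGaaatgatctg

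The X1 core occurred in the windows of CD74, HLA-DRB1 and HLA-DMB, against 3.73% of the 34796 distinct windows of this length. The Y box occurred in those of all members with an entry except HLA-DPA1, against 34.6%. An X1 core followed on the gene's strand by a Y box within 30 bases, an arrangement looked for after these promoters had been read, was present in 34 windows, or 0.0977%. CD74, with 17 bases between them, HLA-DRB1, with 22, and HLA-DRB5 were 3 of those. TGACG, the letters of a short CREB element, was found in HLA-DMB, HLA-DPA1, HLA-DPB1 and HLA-DQB1 and in 24.5% of all windows. The longer X2 letters TGCGTCA, which contain TGACG on the other strand, were found in no member with an entry and in 2.46%. The letters TTCNNNGAA of the interferon gamma activated site were found in HLA-DQA1 and in 7.67%. A match of letters is a description of these windows, not a site in use.

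Genes outside the members with the same arrangement of letters were looked up as well. Of the genes whose window holds it, 10 outside the members were listed in each of the authors' deposited tables. Of these, 3 rose and 6 fell in H33 with an adjusted p under 0.05, and 2 rose and 6 fell in H12. Over all genes 44.2% rose and 45.3% fell in H33, and 41.8% and 44.3% in H12, so nothing is read from these counts. MR1, a class I-like molecule that presents vitamin B metabolites, rose in the authors' deposited tables, by 1.73 in H33 (SE 0.055) and by 1.65 in H12 (SE 0.061). BTN3A2, a butyrophilin of the family seen by gamma delta T cells, fell, with -1.72 (SE 0.060) and -1.87 (SE 0.11) in the authors' deposited tables. Its neighbour BTN3A3 rose by 0.55 and by 0.34 in the authors' deposited tables. These 3 genes were named after their values had been seen.

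The levels below are CPM per group. They are implied by the mean level and the fold change in the authors' deposited tables, with equal group sizes assumed. The HepG2 level is the one from the H12 table unless stated otherwise. The SE beside a log2 fold change was worked out from its likelihood ratio. Implied levels under 0.0078125 CPM gather at a floor of the authors' fit, as for a gene without reads, so for genes at that floor no fold change is given. CPM per kb divides by the length of the longest principal coding transcript in GENCODE 29, which is the only scale used here to compare different genes.

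HLA-DRA, the near-invariant alpha chain of HLA-DR (ENSG00000204287, GRCh38 chromosome 6, 32439842 to 32445046, plus strand), was at the floor in HepG2, at 0.0050 CPM. It stood at 2.99 CPM in H33 and at 11.9 CPM in H12. The level in H12 was 3.98 times that in H33. HLA-DRB1, the polymorphic beta chain that pairs with it (ENSG00000196126, chromosome 6, 32578769 to 32589848, minus strand), stood at 0.0349 CPM in HepG2, 4.13 CPM in H33 and 10.7 CPM in H12. In the authors' deposited tables its log2 fold change was 6.81 (SE 0.28) in H33 and 8.26 (SE 0.22) in H12. The 2 fold changes differed by 1.45 (SE 0.36), with H12 the higher. Both chains of HLA-DR thus had the same order of the 3 lines. Per kb, HLA-DRA and HLA-DRB1 stood at 2.34 and 3.36 CPM in H33 and at 9.31 and 8.67 CPM in H12. The spread over libraries is unknown, so it cannot be said whether these neighbours in level differ.

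HLA-DPA1, the alpha chain of HLA-DP (ENSG00000231389, chromosome 6, 33064569 to 33080775, minus strand), stood at 0.0423 CPM in HepG2, 6.75 CPM in H33 and 11.0 CPM in H12. Its log2 fold changes in the authors' deposited tables were 7.27 (SE 0.24) and 8.03 (SE 0.20). HLA-DPB1, its beta chain (ENSG00000223865, chromosome 6, 33075926 to 33087201, plus strand), was listed for H12 alone, where it stood at 1.46 CPM against the floor in HepG2. The DP chains were thus unequal in H12, at 6.48 CPM per kb for the alpha and 0.938 for the beta chain. The genes overlap on opposite strands, and the use of strand in counting is not given in the sources used here, so reads of the overlap cannot be told apart.

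The HLA-DQ chains were the lowest of the class II genes and were listed for H12 alone. HLA-DQA1 (ENSG00000196735, chromosome 6, 32628179 to 32647062, plus strand) was at the floor in HepG2 and at 0.889 CPM in H12. HLA-DQB1 (ENSG00000179344, chromosome 6, 32659467 to 32668383, minus strand) stood at 0.0246 CPM in HepG2 and 0.894 CPM in H12, a log2 fold change of 5.18 (SE 0.49) in the authors' deposited table for H12. Per kb the DQ chains were close to each other, at 0.559 and 0.515 CPM. A level for H33 was not analysed here. HLA-DR, DP and DQ alleles and paralogs are near-identical in part, so their counts are uncertain where reads could be split between them or fail to match the reference allele.

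HLA-DM, the non-classical pair that edits the peptide in the endosome, was led by its alpha chain. HLA-DMA (ENSG00000204257, chromosome 6, 32948613 to 32969094, minus strand) was the only HLA-D gene above 0.1 CPM in HepG2, at 0.562 CPM, and stood at 11.9 CPM in H33 and 11.6 CPM in H12. Its log2 fold changes in the authors' deposited tables, 4.39 (SE 0.13) and 4.36 (SE 0.15), differed by 0.02 (SE 0.20). HLA-DMB (ENSG00000242574, chromosome 6, 32934629 to 32941070, minus strand) stood at 0.0450 CPM in HepG2, 2.16 CPM in H33 and 3.09 CPM in H12, with log2 fold changes of 5.55 (SE 0.35) and 6.10 (SE 0.27) in the authors' deposited tables. Per kb, HLA-DMA was 6.87 times HLA-DMB in H33 and 4.65 times in H12. HLA-DMA overlaps BRD2 on the opposite strand, whose log2 fold change was -0.02 in H33 and 0.02 in H12 in the authors' deposited tables and passed in neither clone.

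**Figure D1:**
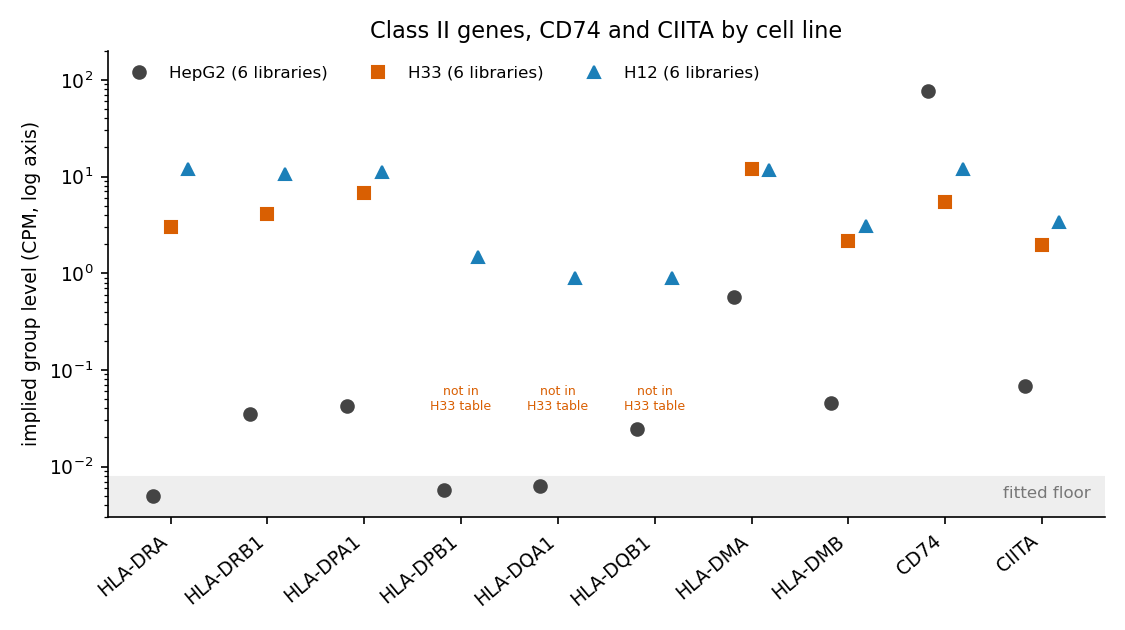
Implied level of each member in CPM on a log axis, in HepG2 (circles), H33 (squares) and H12 (triangles), with 6 libraries behind each point and no error bars because values per library were not used. HLA-DRA, HLA-DPB1 and HLA-DQA1 lie in the grey floor in HepG2; CD74 alone is highest in HepG2, at 77.0 CPM.

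CIITA, which sets the level of class II transcription in most cells, was low in all 3 lines but followed the same order. The gene (ENSG00000179583, chromosome 16, 10866222 to 10943021, plus strand) stood at 0.0682 CPM in HepG2, 1.95 CPM in H33 and 3.38 CPM in H12. Its log2 fold changes in the authors' deposited tables were 4.77 (SE 0.31) and 5.63 (SE 0.26), with a difference of 0.86 (SE 0.40) between the clones. The level in H12 was 1.74 times that in H33, against 3.98 times for HLA-DRA, 2.58 for HLA-DRB1, 1.63 for HLA-DPA1, 1.43 for HLA-DMB and 0.969 for HLA-DMA. Of the 7 members listed for both clones, 6 stood higher in H12 than in H33. The share over all genes was not worked out, so nothing is read from this count. The fold changes differed by only 0.76 (SE 0.31) for HLA-DPA1 and 0.55 (SE 0.44) for HLA-DMB, with H12 the higher. CIITA starts at several promoters used by different cell types, which these values per gene do not separate. The 3 nearest listed genes on each side of CIITA, among them DEXI, which overlaps it on the other strand, all fell in both clones. They ranged in the authors' deposited tables from -3.80 for ATF7IP2 to -0.52 for EMP2 in H33 and from -3.42 to -0.47 for the same genes in H12.

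CD74 went the other way. The invariant chain gene (ENSG00000019582, chromosome 5, 150401637 to 150412929, minus strand) stood at 77.0 CPM in HepG2, where its class II partners were near 0, at 5.48 CPM in H33 and at 11.9 CPM in H12. The log2 fold changes in the authors' deposited tables were -3.79 (SE 0.063) and -2.70 (SE 0.16). H33 thus kept 7.22% and H12 15.4% of the HepG2 level. The fold changes differed by 1.09 (SE 0.17), with H12 the higher, as for the DR chains. In H12, 1.64% of the HepG2 level of CD74 is 1.27 CPM; without it 10.6 CPM remained, or 13.8% of HepG2. The other members were too low in HepG2 for that share to move them. The 3 nearest listed coding genes on each side of CD74 moved in both directions. In the authors' deposited tables they ranged from -6.04 for ARSI to 1.08 for SYNPO in H33. The same genes were at -5.68 and 0.45 in H12. Between them, PDGFRB, the platelet-derived growth factor receptor beta, was at -4.79 in H33 and -4.93 in H12 in the authors' deposited tables. TCOF1, the treacle ribosome biogenesis factor, was at 0.47 and 0.38, and NDST1 at -0.31 and -0.24 in the authors' deposited tables. RPS14, a ribosomal protein, was at -0.08 in both and did not pass in H12.

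**Figure D2:**
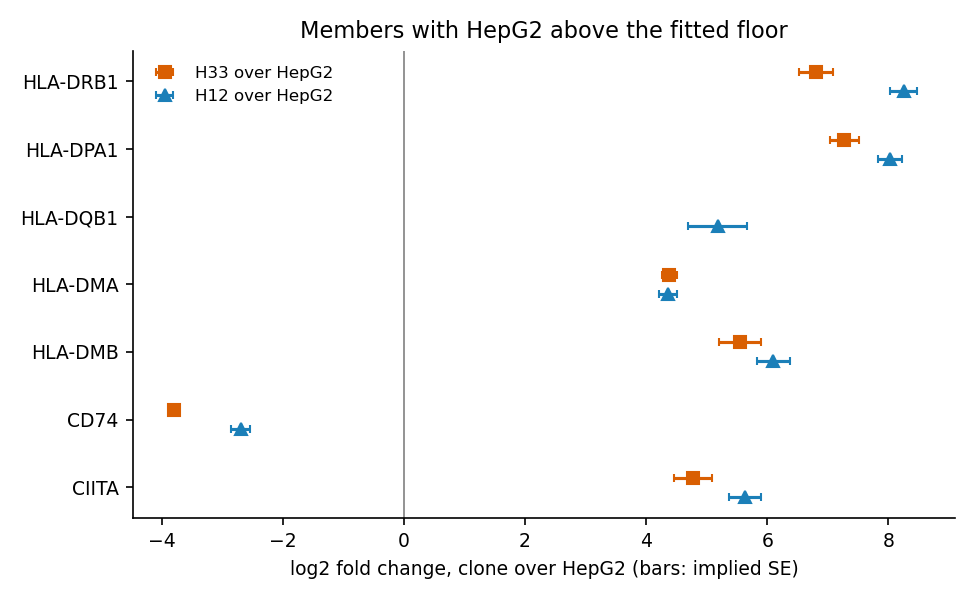
Log2 fold change of clone over HepG2 for the 7 members whose HepG2 level is above the fitted floor, with bars of 1 implied SE; squares are H33 and triangles H12. CD74 lies at -3.79 and -2.70, and the other genes between 4.36 and 8.26.

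The level of the invariant chain beside that of the alpha chains it accompanies differed widely between the lines. Summed over the listed classical alpha chains, HLA-DRA, HLA-DPA1 and HLA-DQA1, the level per kb was 0.0327 CPM in HepG2 against 78.5 CPM for CD74. HLA-DRA and HLA-DQA1 were at the floor in HepG2, so their part of that sum is a value of the fit, as for genes without reads. In H33 the alpha chains listed there, HLA-DRA and HLA-DPA1, summed to 6.30 CPM per kb against 5.59 for CD74. In H12 all 3 summed to 16.3 CPM per kb against 12.1 for CD74. CD74 was thus 0.887 times the alpha chains in H33 and 0.741 times in H12. These are levels of RNA per group, without an error.

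On a scale where levels under 0.1 CPM were set to 0.1, the change of the 5 HLA-D genes listed for H33 had a median of 4.90 log2 units, from 4.39 to 6.08. The 8 listed for H12 had a median of 4.66, from 3.15 to 6.90. The medians over all genes were -0.02 and -0.03 log2 units. In H33, 771 genes or 5.18% rose by at least as much as the lowest HLA-D gene, and in H12 1214 or 8.15% did. Falls are not in these counts. Rises of the size of the lowest HLA-D gene were therefore not rare in these clones. At the highest HLA-D gene the counts were smaller, with 352 genes for HLA-DPA1 in H33 and 168 for HLA-DRA in H12, the gene itself included. The genes whose pair of changes lay nearest to that of HLA-DRA were HLA-DRB1, at a distance of 0.493 log2 units, then EMC10, a subunit of a membrane protein insertase (0.631), MAP7, a microtubule-binding protein (0.788), AFAP1L2 (1.14) and HLA-DPA1 (1.18). Those nearest to CD74 were PIK3R1, the regulatory subunit of PI3-kinase (0.154), KBTBD8 (0.225), SLC22A15 (0.311), USP43 (0.317) and C16orf86 (0.324). Each distance rests on only 2 changes that share the HepG2 libraries.

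The other listed genes of the class II region of chromosome 6 changed by less than any HLA-D gene did on the scale with the 0.1 CPM floor. From NOTCH4 to RING1, 12 other genes were listed for both clones. In H33, 7 rose and 4 fell at an adjusted p under 0.05 in the authors' deposited table, with a median log2 fold change of 0.28 and a range from -2.60 to 2.81. In H12, 6 rose and 3 fell in the authors' deposited table, with a median of 0.14 and a range from -2.61 to 2.88. Over all genes 89.6% passed in H33 and 86% in H12. The highest were COL11A2, a collagen chain gene, at 2.81 and 2.88, and NOTCH4, a Notch receptor gene, at 2.81 and 2.67 in the authors' deposited tables. BRD2, a bromodomain gene between the DM and DP genes, did not pass in either clone. The difference got no test, since the class II genes had been chosen with their changes known. A gene near 0 in HepG2 can be listed only through its level in the clone, so small changes of such genes are not seen. The order on this scale is thus fixed in part by which genes were listed, and nothing is read from it. The order does not hold with the floor at 1 CPM, where 2 of 5 HLA-D genes in H33 and 4 of 8 in H12 exceeded every other gene of the region in size. On that scale HLA-D genes ran from 1.11 to 3.58 in H33 and from 0 to 3.57 in H12, and the other genes from -2.60 to 2.27 and from -2.61 to 2.12.

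**Figure D3:**
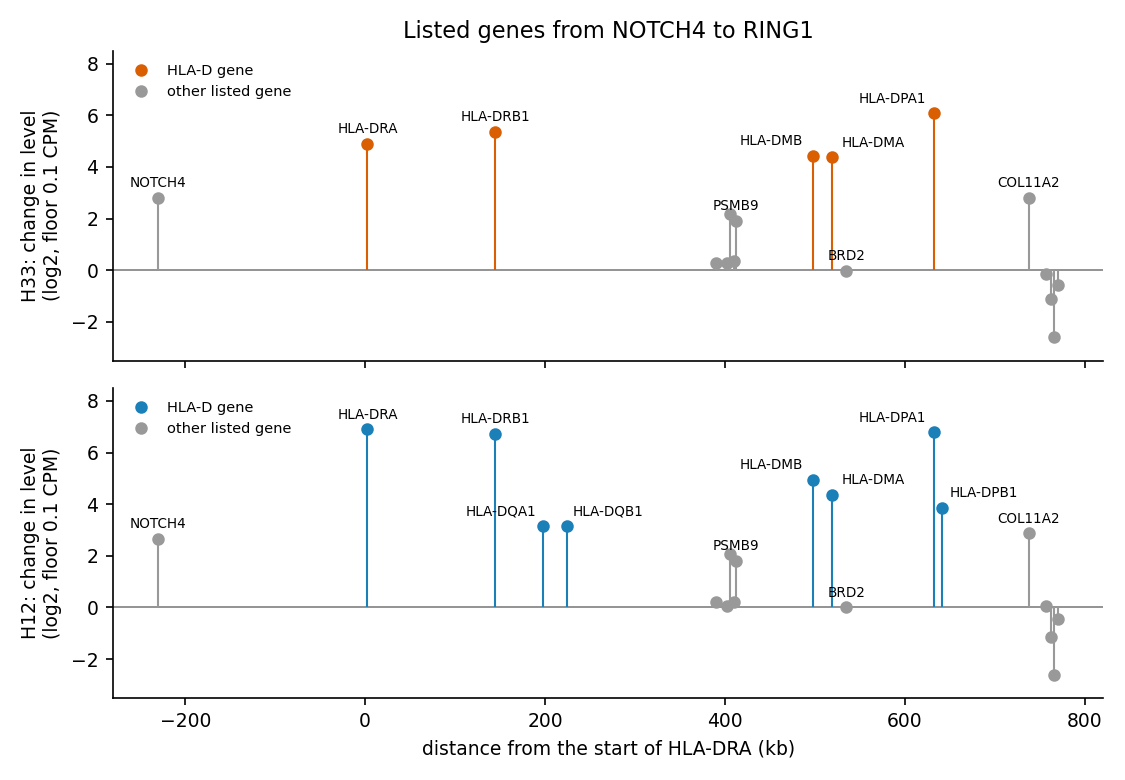
Change in implied level (log2, levels under 0.1 CPM set to 0.1) of each listed gene from NOTCH4 to RING1 against its distance in kb from the start of HLA-DRA, for H33 (upper panel) and H12 (lower panel); coloured points are HLA-D genes and grey points other genes. The HLA-D genes lie between 4.39 and 6.08 in H33 and between 3.15 and 6.90 in H12, above the grey points of the same panel; with the floor at 1 CPM they are not all above them. Genes near 0 in HepG2 can be listed only through the clone, which leaves out small changes of such genes.

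Genes for the proteins that work with CIITA at class II promoters were listed in all 3 lines, and KAT2B showed the largest change among them. Of 12 promoter factors, 5 rose, 6 fell and 1 did not pass in H33, and 5 rose, 2 fell and 5 did not pass in H12. This count and those of the lists after it stand against 89.6% of all genes that passed in H33 and 86% in H12, so a passing share near these is no feature of a list. Within the RFX complex, RFX5 rose by 0.75 (SE 0.040) and 0.74 (SE 0.047) in the authors' deposited tables, and RFXANK rose by 0.37 and 0.26. The remaining subunit, RFXAP, fell, with -1.12 (SE 0.077) in H33 and -1.07 (SE 0.10) in H12 in the authors' deposited tables. Among the NF-Y subunits, which bind the Y box, NFYB rose by 0.26 and 0.25 and NFYC fell, with -0.48 and -0.61, in the authors' deposited tables. NFYA fell by 0.17 in H33 and stood at -0.07 in H12, not past the threshold there.

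Of the X2 binders and coactivators in the same list, KAT2B was the only one that rose. CREB1, ATF1 and the acetyltransferase EP300 fell in H33, with -0.19, -0.20 and -0.22 in the authors' deposited table, and did not pass in H12, at -0.09, -0.11 and -0.15. Its paralog CREBBP passed in neither of the authors' deposited tables, at -0.04 and -0.01. KAT2B, the acetyltransferase also known as PCAF, rose by 3.39 (SE 0.087) and 3.32 (SE 0.094) in the authors' deposited tables. RFX1, a related RFX protein outside the complex, rose by 1.04 and 0.85 in the authors' deposited tables.

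Of 12 genes known to control or silence CIITA, 9 were listed; 6 rose, 2 fell and 1 did not pass in H33, and 5 rose, 2 fell and 2 did not pass in H12. IRF1, which acts at the interferon-responsive CIITA promoter, rose in the authors' deposited tables by 2.58 in H33 (SE 0.049) and by 2.38 in H12 (SE 0.071), from 13.6 CPM in HepG2 to 81.7 and 70.8 CPM. Its partner there, IRF2, fell, with -0.63 and -0.59 in the authors' deposited tables. The DNA methyltransferase DNMT3A fell, with -1.99 and -1.95, while the histone deacetylase HDAC1 rose by 1.19 and 1.10 and the H3K27 methyltransferase EZH2 by 0.56 and 0.59 in the authors' deposited tables. SPI1, IRF4 and PRDM1, regulators of CIITA in blood cells, were listed in neither of the authors' deposited tables.

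Interferon gamma signalling genes moved in both directions at the receptor, and the listed targets rose. Of 17 genes 13 were listed, of which 10 rose, 2 fell and 1 did not pass in H33, and 9 rose, 2 fell and 2 did not pass in H12. The ligand-binding receptor chain IFNGR1 fell, with -2.59 (SE 0.047) and -2.55 (SE 0.13), and the signalling chain IFNGR2 rose by 0.96 (SE 0.032) and 1.04 (SE 0.089) in the authors' deposited tables. Of the kinases, JAK1 passed in neither of the authors' deposited tables, at -0.04 and -0.05, and JAK2 rose by 0.40 and 0.53. STAT2 rose by 0.11 in H33 and stood at 0.05 in H12, not past there, and IRF9 fell, with -0.41 and -0.43 in the authors' deposited tables.

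Among the targets, the guanylate-binding GTPases GBP1 and GBP4 rose by 3.50 and 3.30 in H33 and by 3.31 and 3.88 in H12 in the authors' deposited tables. Their relative GBP2 rose as well, from 14.6 CPM in HepG2 to 67.1 CPM in H33 and 60.3 CPM in H12. The feedback inhibitor SOCS3 rose by 3.80 and 3.59, and the phosphatase PTPN2 by 0.80 and 0.71, in the authors' deposited tables. The chemokine CXCL10 stood at the floor in HepG2 and at 0.745 CPM in H33 and 0.820 CPM in H12. GBP5, IDO1, CXCL9 and CXCL11 were listed in neither of the authors' deposited tables. The part of this pathway in the class II levels was not tested.

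The endosomal genes that process the invariant chain and the antigen moved in no common direction. Of 14 genes 13 were listed; 5 rose, 5 fell and 3 did not pass in H33, and 4 rose, 5 fell and 4 did not pass in H12. CTSS, the cathepsin that makes the last cuts in the invariant chain in many antigen-presenting cells, rose by 1.23 (SE 0.12) and 1.21 (SE 0.11), and CTSZ, an exopeptidase, by 3.41 (SE 0.055) and 3.21 (SE 0.080) in the authors' deposited tables. SPPL2A, the membrane protease that clears the remaining CD74 stub, fell, with -1.32 and -1.27, as did the cathepsin gene CTSB, with -1.29 and -1.44, in the authors' deposited tables. CTSD, an aspartic protease, rose by 0.95 and 0.70, and CTSH, an aminopeptidase, fell, with -0.87 and -1.04 in the authors' deposited tables. For class II surface turnover, 4 of 7 symbols were listed, with log2 fold changes from -0.33 to 0.29 in H33 and from -0.32 to 0.37 in H12.

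CD74 is also a surface receptor for the cytokine MIF, with CD44 as its signalling partner, and these genes did not fall with CD74. All 4 listed of 6 rose in H33, and 3 rose and 1 did not pass in H12. CD44 rose in the authors' deposited tables by 8.04 in H33 (SE 0.055) and by 7.96 in H12 (SE 0.41), from 11.4 CPM in HepG2 to 3001 and 2846 CPM. ACKR3, an atypical chemokine receptor that binds MIF, rose by 6.08 (SE 0.20) and 5.91 (SE 0.20) in the authors' deposited tables. MIF rose by 0.52 (SE 0.12) in H33 and stood at 0.27 in H12, not past there, and its paralog DDT rose by 0.26 and 0.18 in the authors' deposited tables.

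T cell costimulation and adhesion genes moved in both directions. Of 14 genes 11 were listed; 6 rose, 3 fell and 2 did not pass in H33, and 6 rose, 4 fell and 1 did not pass in H12. The B7 ligands CD80 and CD86 were listed in neither of the authors' deposited tables. CD274, which encodes the inhibitory ligand PD-L1, rose by 6.42 (SE 0.20) and 6.69 (SE 0.16) in the authors' deposited tables, and its relative PDCD1LG2 stood at the floor in HepG2 and at 0.773 and 0.703 CPM in the clones. The adhesion ligands ICAM1 and ICAM2 fell, with -8.03 and -8.21 in H33 and -6.04 and -6.15 in H12 in the authors' deposited tables. Both H12 values, with an SE of 1.03 for ICAM1 and 0.20 for ICAM2, lie near the 1.64% at which genes nearly absent from H33 gather. CD58, the ligand of CD2, rose by 1.24 and 1.48 in the authors' deposited tables.

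Class I presentation genes moved in both directions. Of 18 genes 17 were listed; 10 rose, 6 fell and 1 did not pass in H33, and 9 rose, 7 fell and 1 did not pass in H12. HLA-B rose by 2.11 (SE 0.036) and 1.83 (SE 0.082), the light chain gene B2M by 1.00 and 0.89, and the immunoproteasome subunit gene PSMB9 by 1.91 and 1.81 in the authors' deposited tables. HLA-F fell, with -7.09 (SE 0.34) and -5.73 (SE 0.29), in the authors' deposited tables, the latter again near 1.64% of HepG2. NLRC5, which does for class I promoters what CIITA does for class II, rose by 0.35 and 0.32 in the authors' deposited tables.

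**Figure D4:**
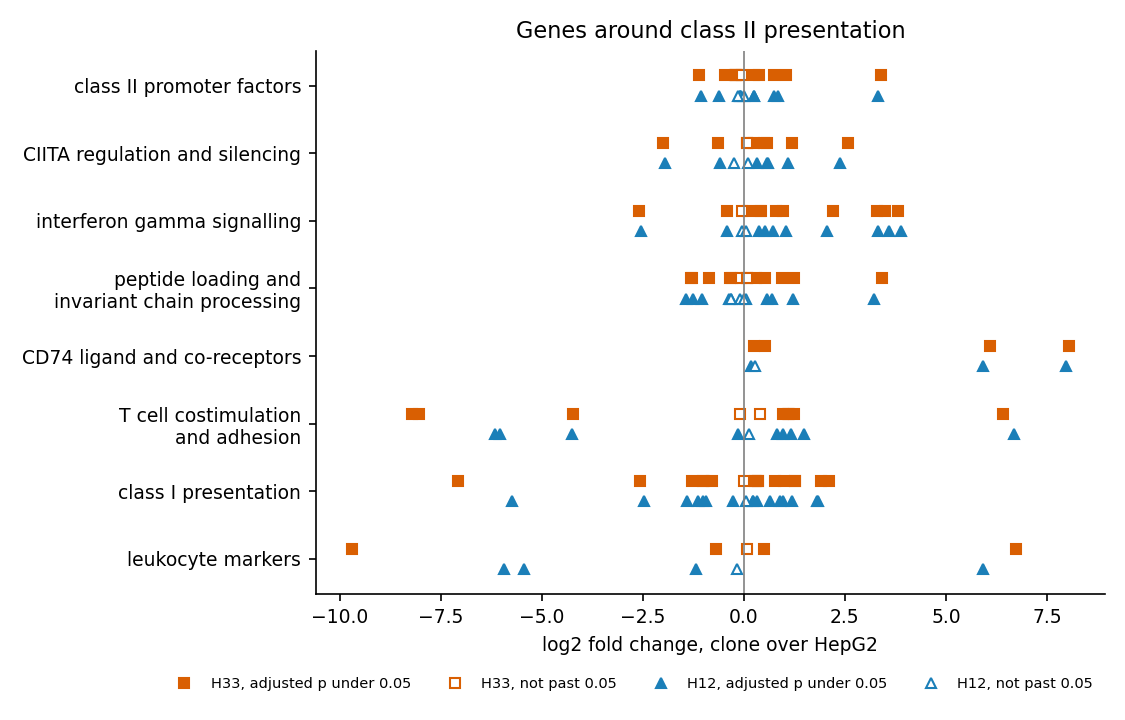
Log2 fold change of clone over HepG2 for each listed gene of 8 lists around class II presentation, with squares for H33 and triangles for H12; filled symbols have an adjusted p under 0.05. Genes at the fitted floor in HepG2 or in the clone are left out, CXCL10 and PDCD1LG2 among them. ICAM1, ICAM2, HLA-F and LYZ are among the points at the far left, and CD44, ACKR3, CD274 and LAPTM5 form the far right.

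Markers of leukocytes, which carry class II constitutively, were set beside these values. Of 22 markers 6 were listed in H33 and 5 in H12, and PTPRC, CD3D, CD3E, MS4A1, CD79A, CSF1R, TYROBP and SPI1 were in neither of the authors' deposited tables. Their summed level was 3143 CPM in HepG2, 82.3 CPM in H33 and 98.1 CPM in H12, most of it in HepG2 being LYZ, the lysozyme gene. The HepG2 sums of this paragraph are from the H33 table. ITGAX, listed for H33 alone, is not in the H12 sums. LYZ in H12 stood at 51.3 CPM, or 1.63% of HepG2, close to the 1.64% at which genes nearly absent from H33 gather. The SE of its log2 fold change there was 1.43. Without LYZ the sums were 12.9, 78.6 and 46.8 CPM, and most of it in the clones was LAPTM5, a lysosomal protein gene of haematopoietic cells, at 0.633 CPM in HepG2, 67.4 CPM in H33 and 38.4 CPM in H12. LAPTM5 was higher in H33 than in H12, HLA-DRA was higher in H12, and HLA-DMA in H12 was 0.969 times its level in H33. The part of leukocyte RNA in the class II levels was not tested, and nothing about it is read from these orders. The share of cells that carry the class II RNA cannot be told apart from the level per cell in these libraries.

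Between the clones, the fold changes of 98 genes of these lists outside the members could be compared, through the shared HepG2 libraries. The difference passed a two-sided normal test over the implied SEs, Benjamini-Hochberg adjusted over 14765 genes, for 8 of them, where 5.4% of all genes passed. Of these 8, 6 were higher in H33 and 2 in H12. The SE of a difference sums both SEs as if the comparisons were independent, while they share the HepG2 libraries, so it is too large, and a gene that misses the threshold is not shown to be alike in the clones.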

How the data were processed

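The labels describe poly-A RNA-seq of 6 libraries each of HepG2, H33 and H12. GRCh38.p10, edgeR 3.28.0, RSEM, STAR 2.5.3a and bcl2fastq 2.20.0.422 stand in the submitters' processing notes. Which step each served, and any low-count filter, dispersion or strand setting, is not given in the sources used here. The authors deposited 1 table per clone. Per the file headers, it holds log2 fold changes and mean log2 CPM, a likelihood ratio, which is a score per gene, and a p-value with its adjusted value. As deposited, the p-value is the upper chi-square tail of the likelihood ratio, and the adjusted one is within 0.000152 (H33) and 0.000105 (H12) of a Benjamini-Hochberg adjustment over all listed genes.

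Values per library were not used, so the depth and the precision it gives are unknown, and no SD, count test or set test was possible. The SE was taken as the absolute fold change over the root of the likelihood ratio, and can be too small near the floor. Group levels assume that the deposited mean is the log2 of the mean CPM of both groups: HepG2 levels from both tables then had an SD of their differences of 0.00981 log2 units in 12737 genes, against 0.342 over 13168 if it is read as a mean of logs. The members and lists were chosen with earlier results of these data known.

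Named were every member, all promoter factors and interferon genes, up to 6 called genes per other list by size, and the 5 nearest patterns to HLA-DRA and CD74; some of these are not reported here, and genes outside this rule were named after their values were seen. Alternatives were other thresholds, scalings, level floors and the other reading of the mean. Identifiers were all found in GENCODE 29. Computation used pandas 2.3.3, scipy 1.17.1, numpy 2.4.6 and, for figures, matplotlib 3.10.9 under Python 3.11.15. On simulated data the difference test called 60% of changes of 0.5 log2 units and 99.3% of those of 4. Of its calls there, 5.53% were false. The simulated noise was normal, independent between clones and drawn from the same implied SEs. It therefore could not check the shared HepG2 libraries or the SEs near the floor.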

Additional observations from a re-analysis of the deposited data

Results flagged for a closer look

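For 8 genes of the lists around class II presentation, the fold change over HepG2 differed between the clones past the test of the difference, with the values given as H33 minus H12 in log2 units from the authors' deposited tables. LAPTM5, a lysosomal protein gene of haematopoietic cells, differed by 0.81 (SE 0.14, adjusted p = 1.37e-06). The class I genes HLA-B and HLA-C differed by 0.27 each (adjusted p = 0.0483 and 0.0364), and the immunoproteasome subunit gene PSMB8 by 0.22 (adjusted p = 0.0237). The endosomal genes IFI30, a thiol reductase gene, and LGMN, an asparaginyl endopeptidase gene, differed by 0.30 (adjusted p = 0.0162) and 0.25 (adjusted p = 0.00604). HLA-F differed by -1.35 (SE 0.45, adjusted p = 0.0488) and ICAM2 by -2.06 (SE 0.30, adjusted p = 1.83e-09). In H12 both of these stood near 1.64% of HepG2, the share at which genes nearly absent from H33 gather, and the part of that share in the differences was not tested. The p-values are from the two-sided normal test over the implied SEs, Benjamini-Hochberg adjusted over 14765 genes.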

How the results depend on the processing

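No paired analysis was possible because the deposited tables carry no values per library; for the same reason no library could be left out. A minimum absolute log2 fold change of 1 lowered the genes called from 13334 to 6626 in H33 and from 12817 to 6564 in H12, and the calls among the listed pathway genes from 87 to 41 and from 77 to 42. With fold changes centred on the median first, these were 6627, 6539, 41 and 41. A threshold of 0.01, a minimum of 1 log2 CPM and an adjustment over shared genes kept each of these counts within 1.5 times. No result reversed its direction under any alternative run. Of the counts per list and by direction, 102 stayed within 1.5 times and 42 fell further. Of the differences between clones of single genes, 11 kept their call and 13 lost it. Of the members' changes in implied level, 19 stayed within the SE and 42 moved. Of the latter, 13 moved with the level floor at 0.01 CPM, 15 with it at 1 CPM, 13 with the mean read as a mean of logs, and 1, CD74 in H12, less the 1.64% share, which was chosen after seeing the data. The number of members higher was 6 in H33 under each reading and floor; in H12 it was 9, and 7 with the floor at 1 CPM, where HLA-DQA1 and HLA-DQB1 are under the floor in both lines. Depth is unknown, so the limit for the unlisted class II genes cannot be given.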
